A study of Mus musculus with 4 samples.

Results

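The 7 genes Tcp11l2, Kdm5b, Fcrl1, Rnase6, Gm40841, Bank1 and Hlf are described here in single microglia from mice given an antibody against TREM2. They are 7 of the 19737 genes in the count matrix, they were chosen from the measured values for large falls with the blood-brain barrier-crossing antibody ATV:4D9 or for low levels in AppSAA mice, and all 7 were among the 14058 genes with enough UMIs to be tested. Every difference that the choice used is therefore given as a description and without a test. Among the 8028 tested genes with a mean of at least 10 CPM (UMIs of the gene scaled to a common library total), 5 of the 7 stood within the first 7 places when genes were ranked by how much lower they were with ATV:4D9 in wild-type mice, from place 2 for Tcp11l2 to place 7 for Gm40841. Hlf stood at place 50 and Bank1 at place 184 there, while in AppSAA against wild-type mice Bank1, Fcrl1 and Hlf took places 4, 5 and 6. Bank1 was thus near the top of the ranking by genotype and not by antibody.

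The mice carried the human transferrin receptor (TfR) apical domain in the mouse TfR locus (TfRmu/hu, recorded as homozygous), on which an antibody transport vehicle (ATV) with a TfR-binding Fc part depends for entry into the brain. In WT;TfRmu/hu mice ATV:4D9 was compared with an isotype control in the same format (ATV:ISO). The AppSAA;TfRmu/hu mice, in which knocked-in App mutations lead to amyloid plaques, received ATV:ISO, the unmodified antibody 4D9 or ATV:4D9. Each of the 5 groups had 4 mice, each mouse had 1 intravenous dose of 10 mg per kg, and CD11b+ live cells were sorted 24 h later. The replicate number of a mouse is the number of the pool of tagged cells that it shared with 1 mouse of each other group. All mice were recorded as male except WT ATV:ISO replicate 4. ATV:4D9 carried a human IgG Fc with the LALA substitutions that weaken Fc receptor binding, and the ages of the mice are not used here.

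Microglia are the resident macrophages of the brain. In the undisturbed brain they hold a homeostatic state with a characteristic set of transcripts, and around plaques or when TREM2 is engaged they leave it, take up metabolic, phagocytic and, in part, proliferative programmes and lower many of those transcripts. The 7 genes have no single pathway. Hlf encodes a transcription factor of the PAR bZIP family, which binds D-box elements and includes the clock output factors Dbp and Tef. Kdm5b encodes a demethylase of lysine 4 of histone H3. Fcrl1 encodes an Fc receptor-like membrane protein and Bank1 a cytoplasmic adaptor with ankyrin repeats, both best known in B cells. Rnase6 encodes a secreted ribonuclease with antimicrobial activity, Tcp11l2 a protein named for its likeness to the testis protein TCP11, and Gm40841 is annotated as a long intergenic non-coding RNA.

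On the GRCm38 build Hlf lies at chr11:90336536-90390895 on the minus strand and Fcrl1 at chr3:87376387-87402934 on the plus strand. Kdm5b lies at chr1:134560171-134635285, Rnase6 at chr14:51123908-51132187 and Tcp11l2 at chr10:84576626-84614359, all on the plus strand. Gm40841 lies at chr13:28394453-28420066 and Bank1 at chr3:136053363-136326066, both on the minus strand, and Bank1 overlaps the antisense gene Gm31243 on the opposite strand. The 250 bases before the RefSeq start site (GRCm38.p6) were read for 6 of the 7 genes, all except Gm40841. They were searched on both strands for the D-box (TTATGTAA or TTACGTAA), the FOXO word GTAAACA, the E-box CACGTG, the CRE TGACGTCA, the AP-1 word TGAGTCA and the PU.1 word GAGGAAGT, none of which contains another. The windows of Fcrl1 and Hlf are shown because they were the only ones with a match and belong to members that were low both with the antibody and by genotype. Capitals mark the matches in the window of Fcrl1 (chr3:87376137-87376386, plus strand) and of Hlf (chr11:90390918-90391167, minus strand), each written 5′ to 3′ toward the gene.
Fcrl1: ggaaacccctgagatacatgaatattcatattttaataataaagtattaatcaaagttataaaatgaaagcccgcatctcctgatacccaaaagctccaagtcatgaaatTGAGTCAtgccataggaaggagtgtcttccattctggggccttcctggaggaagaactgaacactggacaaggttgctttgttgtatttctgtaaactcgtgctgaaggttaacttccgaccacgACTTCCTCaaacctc
Hlf: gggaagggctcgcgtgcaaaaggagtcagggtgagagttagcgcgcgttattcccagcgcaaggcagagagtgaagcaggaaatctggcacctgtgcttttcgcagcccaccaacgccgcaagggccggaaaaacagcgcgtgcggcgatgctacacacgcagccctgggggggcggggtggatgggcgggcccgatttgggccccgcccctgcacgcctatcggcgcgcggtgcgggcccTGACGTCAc
The Fcrl1 window held the AP-1 word 140 bases before the start and the PU.1 word, on the opposite strand, 15 bases before it, and the Hlf window held the CRE 9 bases before the start. Of the 32851 windows of this length, 4.46% held the AP-1 word, 2.44% the PU.1 word and 1.55% the CRE. The D-box, the FOXO word and the E-box, found in 0.931%, 3.17% and 6.02% of all windows, were in none of the members' windows. GC content was 40.8% in the Fcrl1 window and 67.2% in the Hlf window, beside a median of 52.4% over all windows.

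The 74758 cells came from 20 mice with 2193 to 6126 cells and 17150296 to 102446549 UMIs each. The median number of UMIs per cell was higher with ATV:4D9, at 15338 ± 1625 (SD, n = 4) in WT and 15523 ± 1335 in AppSAA mice, than in the other groups, at 7566 ± 642 with ATV:ISO in WT mice and 9339 ± 673 with ATV:ISO and 9741 ± 1417 with 4D9 in AppSAA mice. Levels are therefore given in CPM and in UMIs per cell, since a gene whose UMIs per cell stay level loses CPM when the rest of the cell's RNA grows. Across all tested genes the median log2 ratio of UMIs per cell was 0.79 for ATV:4D9 in WT mice, 0.47 for ATV:4D9 in AppSAA mice and 0.18 for AppSAA against WT mice under ATV:ISO. The 6 microglial markers summed to 20780 to 21847 CPM in WT ATV:ISO mice, 14054 to 15336 in WT ATV:4D9, 13824 to 16195 in AppSAA ATV:ISO, 14897 to 15732 in AppSAA 4D9 and 11201 to 12633 in AppSAA ATV:4D9 mice. The 9 markers of other brain cells summed to 19.1 to 32.8 CPM in WT ATV:ISO mice, 10.1 to 19.1 in WT ATV:4D9, 8.71 to 19.0 in AppSAA ATV:ISO, 10.8 to 18.7 in AppSAA 4D9 and 5.57 to 14.9 in AppSAA ATV:4D9 mice. The 4 monocyte markers summed to 9.42 to 12.9 CPM in AppSAA ATV:4D9 mice and at most 9.94 CPM elsewhere. Over all mice the 5 border macrophage markers summed to 9.32 to 30.8 CPM, the 4 neutrophil markers to 3.98 to 22.4, the 4 dendritic cell markers to at most 3.07 and the 5 T and NK cell markers to at most 0.668, and none of these genes was at 0 throughout. The part of the depth and of these markers in the differences given here was not tested. Of 74212 different barcode sequences, 543 occurred in more than 1 pool.

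Tcp11l2 was the member with the largest difference by ATV:4D9 in WT mice. With ATV:ISO its level in WT replicates 1 to 4 was 25.4, 26.4, 23.7 and 25.2 CPM, and with ATV:4D9 it was 1.96, 2.74, 2.20 and 2.29 CPM. In AppSAA mice it was 18.4, 14.9, 15.4 and 14.98 CPM with ATV:ISO, 18.02, 16.4, 16.4 and 15.6 CPM with 4D9 and 3.03, 5.56, 4.77 and 4.70 CPM with ATV:4D9. The ATV:4D9 mice of both genotypes lay below every other mouse, and under ATV:4D9 the order of the genotypes was the reverse of that under ATV:ISO, with every AppSAA mouse above every WT mouse. The log2 fold change with ATV:4D9 was -3.34 (SE 0.14) in WT mice, a level 10.1 times lower, and -1.77 (SE 0.13) in AppSAA mice, 3.40 times lower. Log2 fold changes come from a fit with TMM scaling of the libraries, which the CPM values do not have. They therefore differ in size from ratios of mean CPM, which was 10.95 times lower for Tcp11l2 in WT mice.

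Kdm5b, the histone demethylase, followed the same order of groups. It was at 33.2, 48.2, 44.4 and 39.8 CPM with ATV:ISO and 3.96, 6.22, 5.15 and 5.24 CPM with ATV:4D9 in the 4 WT pools. In AppSAA mice the values were 27.7, 26.05, 30.5 and 28.02 CPM with ATV:ISO, 28.1, 27.6, 31.6 and 28.9 CPM with 4D9 and 5.34, 11.3, 10.02 and 8.82 CPM with ATV:4D9. No ATV:4D9 mouse reached the lowest mouse of any other group, while the 2 ATV:4D9 groups overlapped in their values. The difference with ATV:4D9 was 7.45-fold in WT mice, with a log2 fold change of -2.90 (SE 0.15), and 3.05-fold in AppSAA mice, with -1.61 (SE 0.14).

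Rnase6 and Gm40841 had smaller differences in WT mice. Rnase6, the ribonuclease, was at 34.4, 30.7, 32.2 and 28.6 CPM with ATV:ISO and 5.12, 6.12, 4.60 and 4.50 CPM with ATV:4D9 in WT mice. Its AppSAA values were 22.4, 18.9, 23.7 and 19.6 CPM with ATV:ISO, 21.8, 22.1, 18.7 and 18.6 CPM with 4D9 and 6.08, 10.3, 8.57 and 7.21 CPM with ATV:4D9. Both ATV:4D9 groups again lay below all mice without it. Gm40841 was at 32.9, 33.4, 34.6 and 37.7 CPM with ATV:ISO and 4.996, 7.37, 5.73 and 7.07 CPM with ATV:4D9 in WT mice, and at 18.8, 20.8, 20.3 and 21.5 CPM with ATV:ISO, 14.2, 22.9, 19.2 and 20.8 CPM with 4D9 and 2.94, 7.95, 5.78 and 6.49 CPM with ATV:4D9 in AppSAA mice. Its mean was nearly the same in the 2 ATV:4D9 groups, at 6.29 ± 1.12 and 5.79 ± 2.10 CPM, although the ATV:ISO groups did not overlap. The log2 fold changes with ATV:4D9 were -2.51 (SE 0.14) and -1.34 (SE 0.13) for Rnase6 and -2.35 (SE 0.18) and -1.77 (SE 0.18) for Gm40841, in WT and AppSAA mice respectively.

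Fcrl1, Bank1 and Hlf were the 3 members lower by more than 2-fold by genotype as well as with ATV:4D9 in WT mice. Fcrl1, the Fc receptor-like gene, was at 31.4, 34.95, 31.01 and 33.4 CPM with ATV:ISO and 4.21, 5.10, 5.67 and 5.53 CPM with ATV:4D9 in WT mice. In AppSAA mice it was at 16.6, 6.15, 17.97 and 9.70 CPM with ATV:ISO, 14.02, 15.3, 18.4 and 9.71 CPM with 4D9 and 2.47, 3.19, 4.53 and 4.31 CPM with ATV:4D9. It was the member with the widest spread among AppSAA ATV:ISO mice, from the lowest value in replicate 2 to the highest in replicate 3, and replicates 2 and 4 of that group were also the closest to the ATV:4D9 mice. Its log2 fold change was -2.56 (SE 0.25) with ATV:4D9 in WT, -1.74 (SE 0.25) with ATV:4D9 in AppSAA and -1.20 (SE 0.24) by genotype under ATV:ISO.

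Bank1, the adaptor, was at 54.5, 54.7, 58.2 and 63.6 CPM with ATV:ISO and 20.6, 25.9, 26.1 and 25.1 CPM with ATV:4D9 in WT mice, and 22.7, 17.4, 23.05 and 23.1 CPM with ATV:ISO, 19.04, 21.1, 20.7 and 21.6 CPM with 4D9 and 10.8, 13.5, 11.2 and 14.8 CPM with ATV:4D9 in AppSAA mice. WT mice given ATV:4D9 and AppSAA mice given ATV:ISO overlapped, and AppSAA mice given ATV:4D9 lay below both. The log2 fold change was -1.13 (SE 0.08) with ATV:4D9 in WT, -0.70 (SE 0.08) with ATV:4D9 in AppSAA and -1.24 (SE 0.08) by genotype under ATV:ISO.

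Hlf, the PAR bZIP factor, was at 21.6, 28.5, 26.2 and 25.5 CPM with ATV:ISO and 5.01, 7.85, 9.85 and 8.43 CPM with ATV:4D9 in WT mice. In AppSAA mice its values were 9.69, 7.29, 11.6 and 10.9 CPM with ATV:ISO, 8.32, 7.88, 10.98 and 10.2 CPM with 4D9 and 1.97, 4.13, 3.07 and 4.10 CPM with ATV:4D9. WT mice given ATV:4D9 overlapped AppSAA mice given ATV:ISO, and AppSAA mice given ATV:4D9 lay below both. Its log2 fold change was -1.61 (SE 0.18) with ATV:4D9 in WT, -1.51 (SE 0.18) with ATV:4D9 in AppSAA and -1.19 (SE 0.17) by genotype under ATV:ISO, so that its antibody difference was within 1 SE of the same size in both genotypes.

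**Figure D1:**
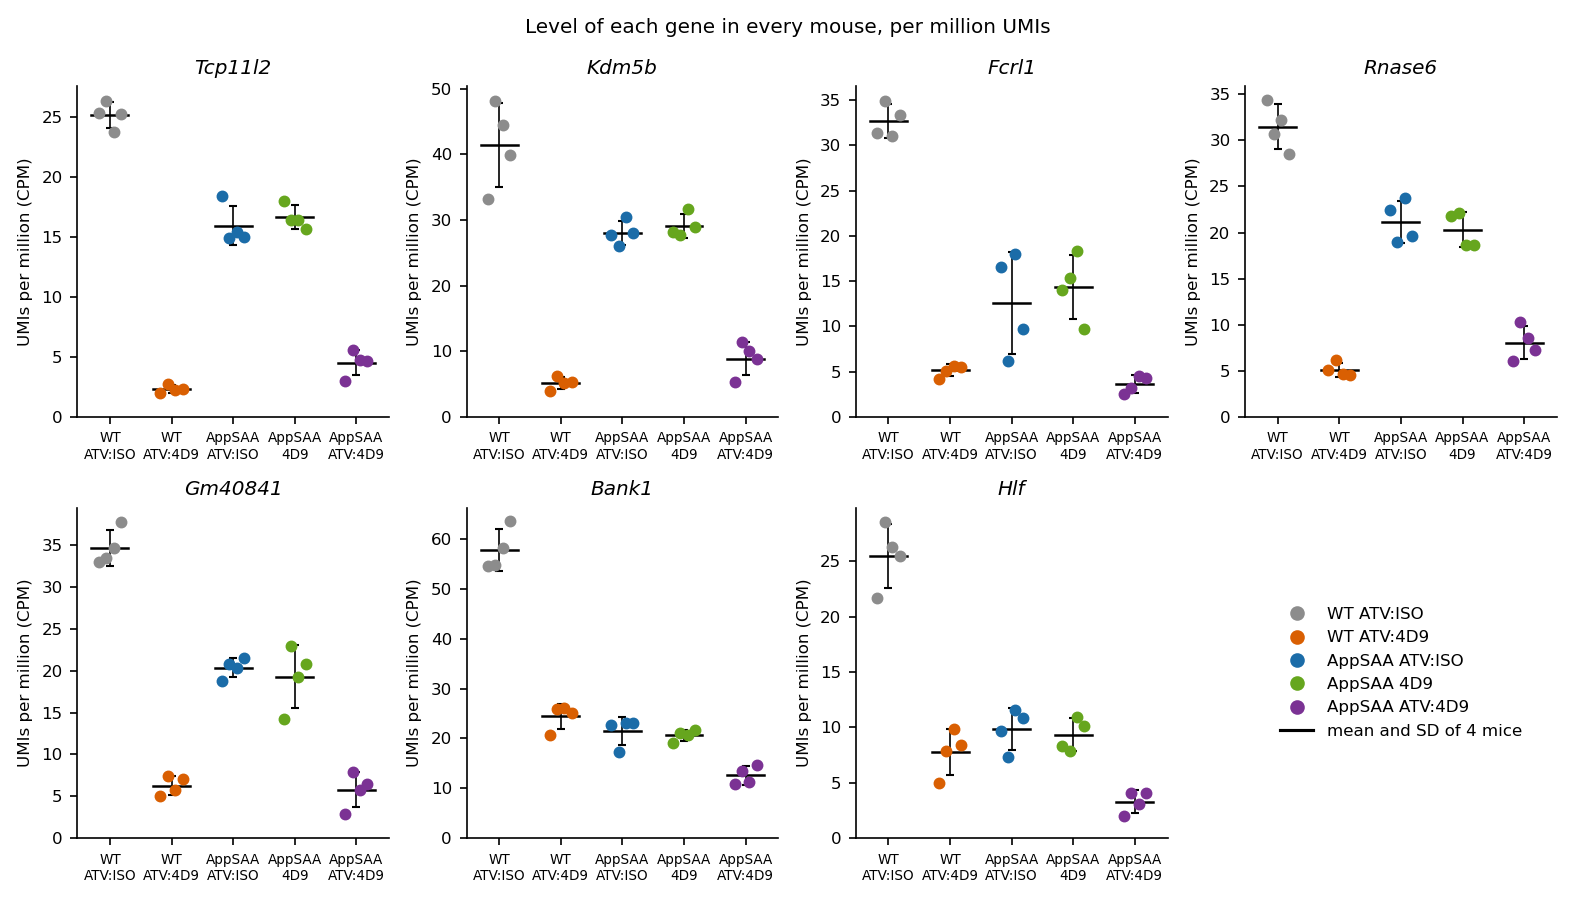
Level of each of the 7 genes in CPM in every mouse, on an axis from 0, by group; points are mice and bars the mean with its SD (n = 4 per group). In each panel both ATV:4D9 groups lie below the ATV:ISO group of the same genotype, and AppSAA mice given ATV:ISO and 4D9 overlap.

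Of the 7 genes, 7 were lower by more than 2-fold with ATV:4D9 in WT mice in the fit, 6 in AppSAA mice (Bank1 was 1.63 times lower) and 3 by genotype under ATV:ISO, beside 6.44%, 4.33% and 0.996% of all tested genes. In CPM all 7 were lower with no overlap of the groups in each of these comparisons, as were 32.8%, 24.9% and 30.6% of tested genes. By edgeR's quasi-likelihood test across all genes (Benjamini-Hochberg adjusted p under 0.05), 30.8% of genes were called higher and 32.5% lower with ATV:4D9 in WT mice, 27.9% and 27.1% in AppSAA mice, and 14.4% and 13.7% by genotype. The members were chosen on these contrasts, so nothing is read from their counts. Their median log2 fold change was -2.51, -1.61 and -0.58, beside -0.05, -0.03 and -0.06 over all tested genes. The 2 treatment contrasts and the genotype contrast share their ATV:ISO mice.

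UMIs per cell gave smaller differences, and the WT groups then overlapped for Bank1 and Hlf. Per cell, Tcp11l2 was 5.64 times lower with ATV:4D9 in WT mice, with 0.198, 0.219, 0.210 and 0.239 UMIs per cell under ATV:ISO against 0.0310, 0.0409, 0.0387 and 0.0431 under ATV:4D9. Kdm5b was 4.15 times lower, Fcrl1 3.25 times, Rnase6 3.20 times and Gm40841 2.84 times, each without overlap of the WT groups. Bank1 held 0.426, 0.454, 0.515 and 0.603 UMIs per cell with ATV:ISO and 0.327, 0.387, 0.458 and 0.471 with ATV:4D9, and the means stood 1.22-fold apart. For Hlf the values were 0.169, 0.237, 0.232 and 0.241 and 0.0793, 0.117, 0.173 and 0.158 UMIs per cell, with the overlap between ATV:ISO replicate 1 and ATV:4D9 replicate 3. Compared within pools, Bank1 and Hlf were each lower with ATV:4D9 in 4 of 4 pools.

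In AppSAA mice the per-cell levels with ATV:4D9 were 2.39 times lower for Tcp11l2, 2.16 times for Kdm5b, 1.79 times for Rnase6, 2.41 times for Gm40841 and 2.03 times for Hlf, all without overlap. Fcrl1 was 2.33 times lower per cell with overlapping groups, at 0.173, 0.0696, 0.218 and 0.119 UMIs per cell with ATV:ISO and 0.0445, 0.0488, 0.0775 and 0.0779 with ATV:4D9. Within pools Fcrl1 was lower in 4 of 4. Bank1 also overlapped and was lower in 3 of 4 pools, at 0.235, 0.197, 0.280 and 0.283 against 0.194, 0.207, 0.192 and 0.267 UMIs per cell. By genotype under ATV:ISO, Bank1 (2.01 times lower per cell), Fcrl1 (1.95), Hlf (1.93) and Tcp11l2 (1.19) stood apart without overlap, whereas Kdm5b, Rnase6 and Gm40841 overlapped. Of these, Kdm5b and Rnase6 were lower in 3 of 4 pools and Gm40841 in 4 of 4.

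Counted per cell, 5 of the 7 genes were more than 2-fold lower with ATV:4D9 in WT mice and 5 in AppSAA mice, and 1 by genotype, beside 0.96%, 1.2% and 0.413% of tested genes. Groups did not overlap for 5, 5 and 4 of them, beside 1.96%, 2.57% and 1.86%. Any lower mean of UMIs per cell was found for 9.93% of tested genes with ATV:4D9 in WT mice, 16.9% in AppSAA mice and 25.0% by genotype, and for 7 of 7 members in each, which the choice of members again bears on. The share of cells with at least 1 UMI, each cell thinned to 5000 UMIs, was 11.9 ± 0.496% for Tcp11l2 with ATV:ISO and 1.42 ± 0.126% with ATV:4D9 in WT mice, and 18.8% and 3.63% before thinning. For Bank1 the thinned shares were 23.7 ± 1.68% and 11.7 ± 1.11%, and 33.4% and 29.3% before thinning. Thinning left out 1084, 402, 1275, 961 and 587 cells with fewer UMIs in the WT ATV:ISO, WT ATV:4D9, AppSAA ATV:ISO, AppSAA 4D9 and AppSAA ATV:4D9 groups. No second cell type was abundant enough in the sort to give a background share.

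**Figure D2:**
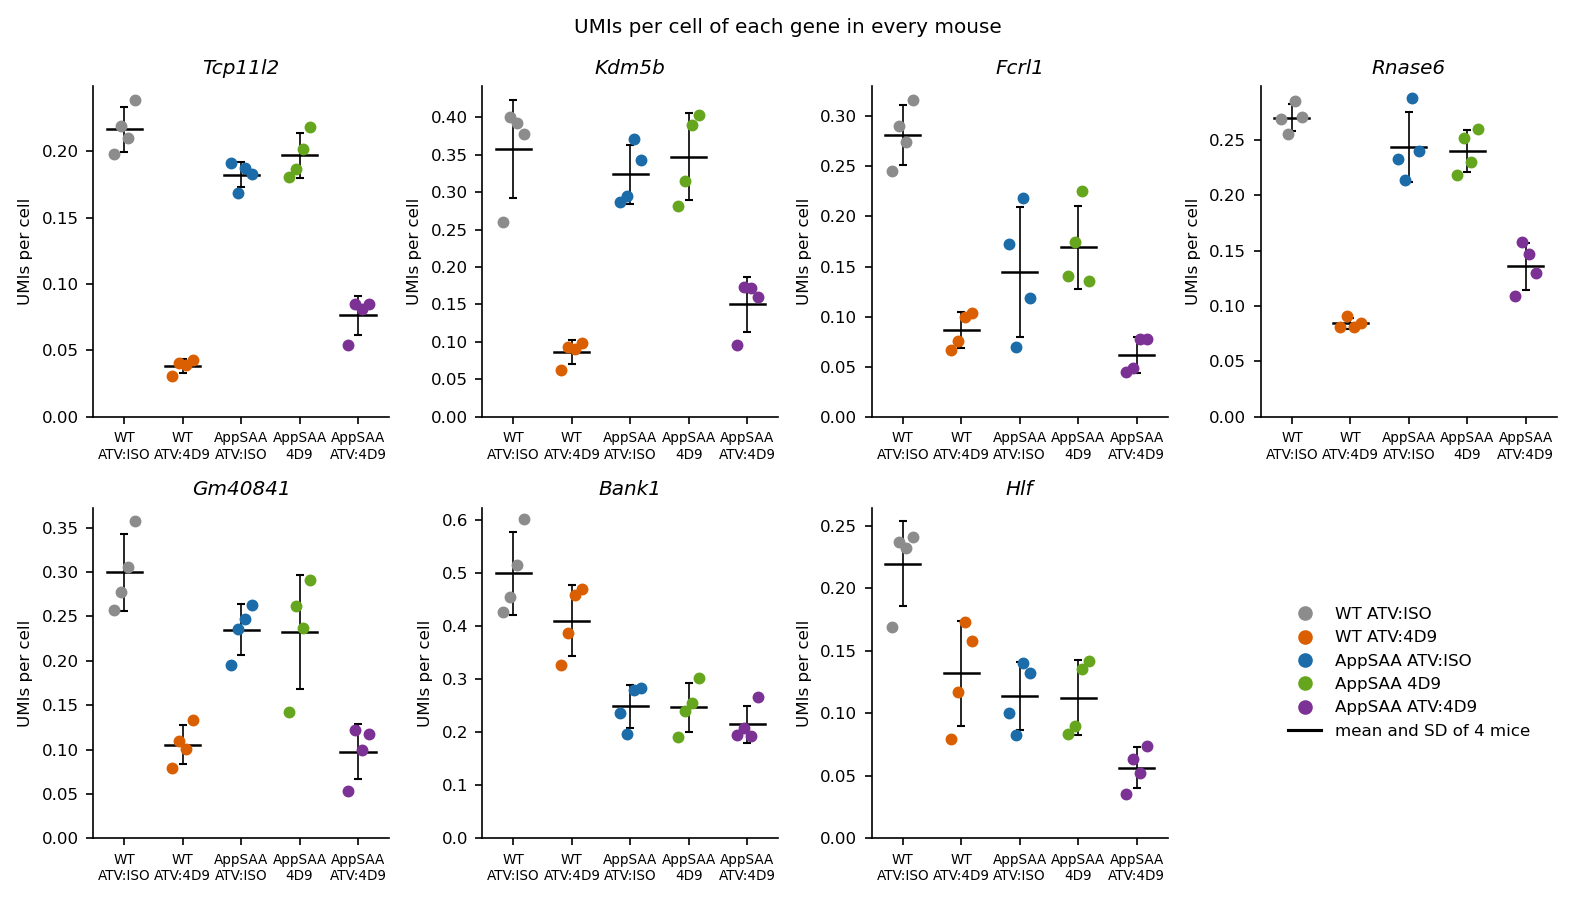
UMIs per cell of each of the 7 genes in every mouse, on an axis from 0, by group; points are mice and bars the mean with its SD (n = 4 per group). The WT ATV:ISO and ATV:4D9 mice are separate for Tcp11l2, Kdm5b, Fcrl1, Rnase6 and Gm40841 and overlap for Bank1 and Hlf.

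**Figure D3:**
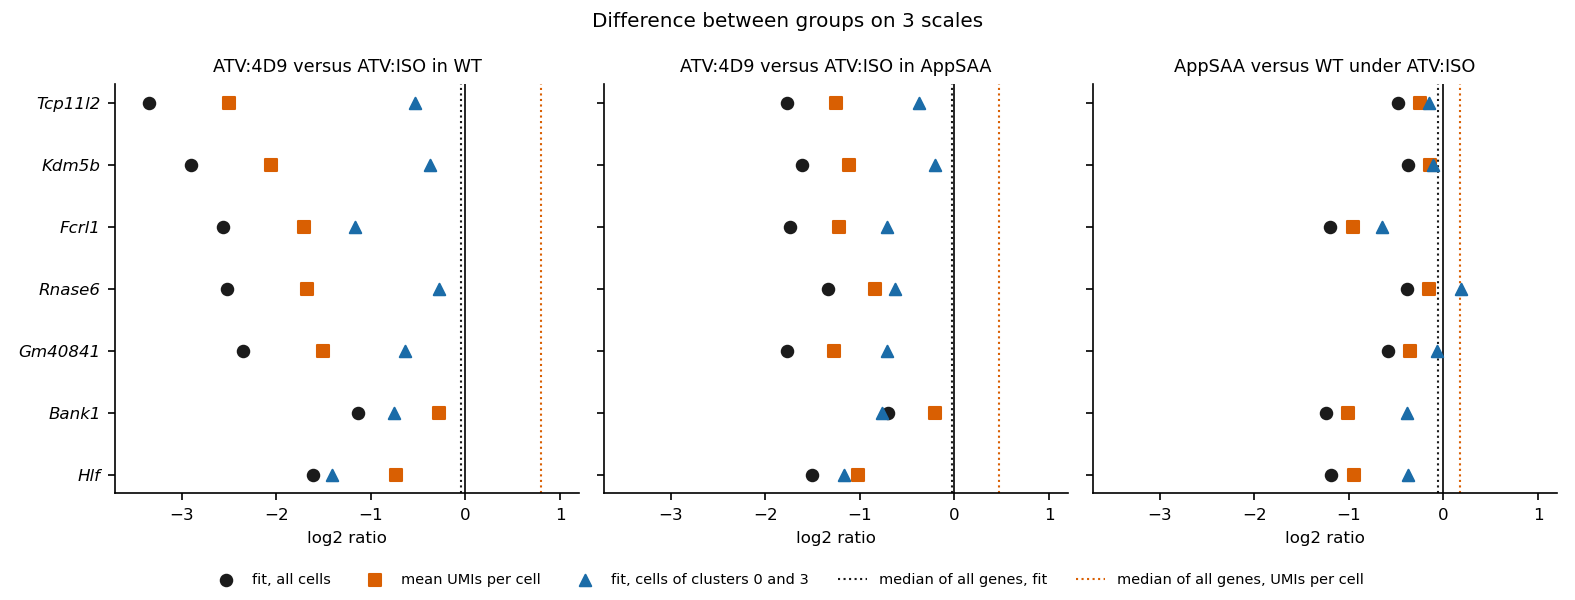
Log2 difference of each of the 7 genes with ATV:4D9 in WT and in AppSAA mice and by genotype under ATV:ISO, from the fit to all cells (circles), as a ratio of mean UMIs per cell (squares) and from the fit to cells of clusters 0 and 3 (triangles), with dotted lines at the median of all genes. Bank1 moves from -1.13 to -0.28 in WT mice when counted per cell, and Tcp11l2 from -3.34 to -2.50.

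Under ATV:4D9 itself the log2 fold change by genotype differed in sign between members. Tcp11l2, Kdm5b and Rnase6 had log2 fold changes of 1.10, 0.91 and 0.79 in AppSAA against WT mice, Gm40841 of 0.00, and Fcrl1, Bank1 and Hlf of -0.37 (SE 0.25), -0.81 and -1.09. In CPM these groups were separate for Tcp11l2, Bank1 and Hlf and overlapped for Kdm5b, Rnase6, Gm40841 and Fcrl1. Against 4D9 rather than ATV:ISO in AppSAA mice, ATV:4D9 gave log2 fold changes from -0.65 for Bank1 to -1.94 for Fcrl1. Both contrasts share the AppSAA ATV:4D9 mice with those above.

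The comparison of 4D9 with ATV:ISO in AppSAA mice was not itself used in the choice of the genes. It shares the AppSAA ATV:ISO mice with contrasts that were used, so it is not independent of the choice. It sets the antibody without the transport vehicle against an isotype that carries the vehicle, so TREM2 binding and TfR binding differ together. None of the 7 passed the test (edgeR, adjusted p = 1.00 for each, lowest unadjusted p = 0.399). The log2 fold change was 0.07 for Tcp11l2 (95% interval -0.18 to 0.33), 0.06 for Kdm5b (-0.23 to 0.35), -0.05 for Rnase6 (-0.32 to 0.23) and -0.07 for Gm40841 (-0.42 to 0.29). For Bank1 it was -0.05 (-0.23 to 0.12), for Hlf -0.07 (-0.43 to 0.30) and for Fcrl1 0.20 (-0.29 to 0.70). Leaving out 1 mouse turned the sign of these small differences for Tcp11l2, Fcrl1, Rnase6 and Gm40841. Over all 14058 genes, 0% were called by edgeR in this comparison and 79 had an unadjusted p under 0.05, while DESeq2 called 1 gene, which was no member, and limma-voom 0.

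The clusters that the authors deposited (resolution 0.2 of the integrated data) separate the levels of the 7 genes. The clusters were built from these cells, so levels by cluster are a description. Clusters 0 and 3 held 96.2 ± 0.772% of cells in WT ATV:ISO mice, 56.0 ± 4.97% in AppSAA ATV:ISO mice and 55.3 ± 2.56% in AppSAA 4D9 mice, but 7.67 ± 1.92% and 6.29 ± 3.63% in the WT and AppSAA ATV:4D9 mice. Clusters 2 and 4 held 87.7% and 57.8% of cells in WT and AppSAA ATV:4D9 mice, cluster 1 held 38.3% in AppSAA ATV:ISO mice, and cluster 5 held 22.4% in AppSAA ATV:4D9 mice. In mean CPM, cluster 0 was the highest in each of the 5 groups for Tcp11l2, Kdm5b, Fcrl1, Bank1 and Hlf, but Rnase6 was highest in cluster 5 in WT ATV:ISO (1 mouse), AppSAA ATV:ISO and AppSAA 4D9 mice. Gm40841 was highest in cluster 5 in WT ATV:ISO (1 mouse) and in cluster 3 in AppSAA 4D9 mice. In UMIs per cell no cluster was the highest in all 5 groups for any member.

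The members differed in the cluster where they were lowest. Tcp11l2 and Kdm5b were lowest in cluster 4 in each of the 4 groups with any mouse of at least 20 such cells, both in CPM and in UMIs per cell. Bank1 and Hlf were lowest in cluster 1 in each of the 3 AppSAA groups on both scales. Rnase6 and Gm40841 were lowest in cluster 4 in those 4 groups in CPM but not in every group in UMIs per cell, and the lowest cluster of Fcrl1 differed between groups.

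The step from cluster 0 to cluster 1 differed between members within AppSAA ATV:ISO mice, where the mean depth was 7504 UMIs per cell in cluster 0 and 15467 in cluster 1. Tcp11l2 was at 23.8 ± 1.003 and 11.7 ± 0.988 CPM but at 0.179 ± 0.0139 and 0.181 ± 0.0131 UMIs per cell, so that it was lower in CPM and level per cell. Bank1 was at 52.9 ± 2.40 and 3.38 ± 1.10 CPM and at 0.398 ± 0.0436 and 0.0531 ± 0.0203 UMIs per cell. Hlf was at 22.9 ± 2.94 and 1.996 ± 0.518 CPM and at 0.173 ± 0.0335 and 0.0312 ± 0.00955 UMIs per cell. Both were thus lower in cluster 1 on either scale.

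Within WT ATV:4D9 mice clusters 0 and 4 had mean depths of 7880 and 18669 UMIs per cell. Tcp11l2 was at 21.9 ± 4.45 CPM in cluster 0 and 0.699 ± 0.276 CPM in cluster 4, and at 0.174 ± 0.0444 and 0.0132 ± 0.00578 UMIs per cell, lower on both scales. Bank1 was at 45.7 ± 12.8 and 27.5 ± 3.11 CPM but at 0.362 ± 0.112 and 0.515 ± 0.0982 UMIs per cell, and Hlf at 15.99 ± 6.77 and 10.6 ± 2.69 CPM but at 0.127 ± 0.0556 and 0.198 ± 0.0593 UMIs per cell. For Bank1 and Hlf the order of the 2 cluster means turned between the scales. Cluster 0 held 60 to 186 cells per mouse in this group, 3.11% of cells. The ranges of mean ± SD of the 2 clusters overlapped on both scales for Hlf and in UMIs per cell for Bank1.

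Per cell, Bank1 in clusters 2 and 4 was at 0.438 ± 0.266 UMIs in WT ATV:ISO and 0.430 ± 0.0671 UMIs in WT ATV:4D9 mice, and at 0.267 ± 0.0852 and 0.301 ± 0.0437 UMIs in AppSAA mice. Such cells were 1.70% of the cells of WT ATV:ISO mice, the group with the widest spread. Rnase6 in cluster 5 was at 42.2 ± 9.44 CPM with ATV:ISO and 40.2 ± 11.9 CPM with 4D9 in AppSAA mice but at 13.9 ± 2.16 CPM with ATV:4D9, and per cell at 0.503 ± 0.123, 0.484 ± 0.0997 and 0.229 ± 0.0227 UMIs.

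**Figure D4:**
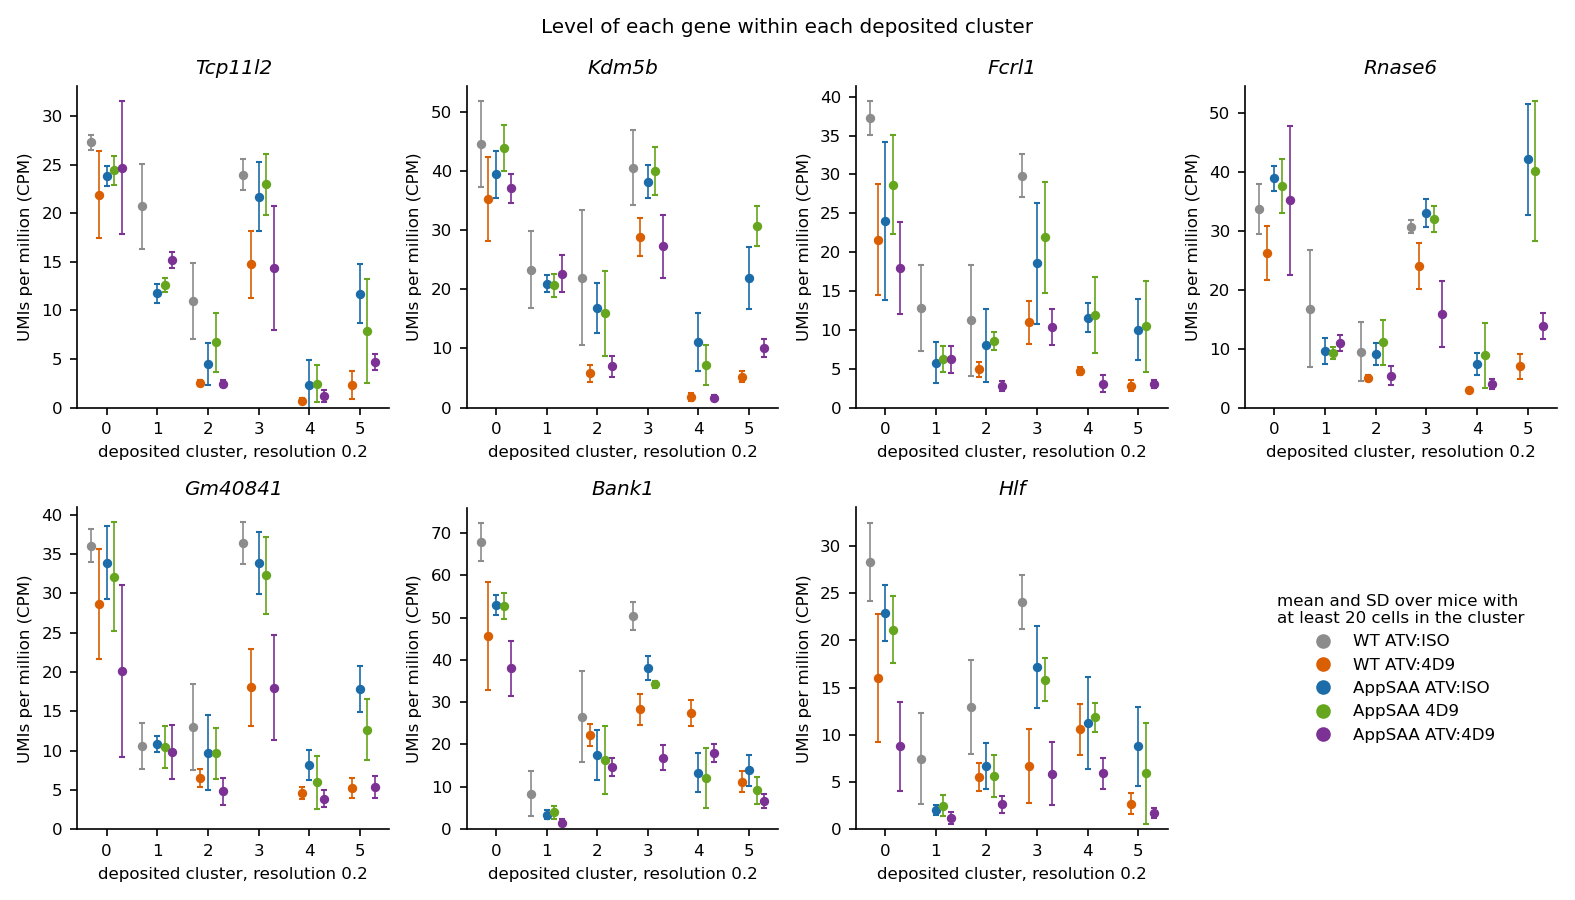
Mean CPM of each of the 7 genes in each deposited cluster, by group, with the SD over mice that had at least 20 cells of that cluster. Tcp11l2 and Kdm5b are lowest in cluster 4 in the 4 groups shown there, and Bank1 and Hlf are lowest in cluster 1 in the AppSAA groups. The mean of Rnase6 is higher in cluster 5 than in cluster 0 in AppSAA mice given ATV:ISO (42.2 and 39.0 CPM) or 4D9 (40.2 and 37.7 CPM), by less than the SD in cluster 5.

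Fitted to the cells of clusters 0 and 3 alone, the differences with ATV:4D9 in WT mice were smaller for all 7 genes. The log2 fold change in these clusters was -0.54 for Tcp11l2, -0.37 for Kdm5b, -0.27 for Rnase6, -0.63 for Gm40841, -0.75 for Bank1 and -1.16 for Fcrl1, which was at -2.56 in all cells. It was -1.41 for Hlf, against -1.61 in all cells. In AppSAA mice it ran from -0.20 for Kdm5b to -1.17 for Hlf and was smaller than in all cells for every member but Bank1, at -0.77 against -0.70. Hlf in these clusters was at 26.6 ± 3.36 CPM with ATV:ISO and 9.81 ± 3.84 CPM with ATV:4D9 in WT mice, and at 19.9 ± 3.34 and 6.96 ± 3.54 CPM in AppSAA mice. Tcp11l2 was at 25.8 ± 1.04 and 17.2 ± 3.06 CPM in WT and 22.8 ± 1.89 and 17.3 ± 4.26 CPM in AppSAA mice. By genotype under ATV:ISO, the differences within these clusters were between -0.65 for Fcrl1 and 0.18 for Rnase6, whose sign thereby turned. Bank1 went from -1.24 to -0.38 and Hlf from -1.19 to -0.38. The clusters were built from the same cells, and no test is given within them.

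Fcrl1 and Bank1 are best known from B cells, so B cell markers were read in the same mice. Of 12 markers, Pax5, which defines the lineage, had 0 UMIs in all cells, Ms4a1 had 26 and Cd79a 85, while Ighm (216 CPM), Cd79b (21.1 CPM) and Ighd (6.94 CPM) were present in every group. The 12 summed to 286 to 314 CPM in WT ATV:ISO mice, 209 to 223 in WT ATV:4D9, 236 to 278 in AppSAA ATV:ISO, 248 to 266 in AppSAA 4D9 and 180 to 212 in AppSAA ATV:4D9 mice. Without those 3, a choice made after their levels were seen, the other 9 summed to at most 2.48 CPM in any mouse. The 429 cells with a UMI of any of the 9, 0.574% of all cells, held 56 Fcrl1 UMIs (0.538%) and 176 Bank1 UMIs (0.754%). Because the 9 are the markers with low levels, a small share of cells followed from the choice. No such share was taken for cells with Ighm, Cd79b or Ighd.

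The genes most like each member were found by the root mean square (RMS) difference of mean-centred log2 CPM over the 20 mice, out of 8021 tested genes with at least 10 CPM. These profiles rest on the same mice and pools, and the likeness is a description. Among the members themselves, Tcp11l2 and Kdm5b were nearest, at an RMS of 0.204, and Bank1 and Hlf stood 0.391 apart, against 1.12 between Tcp11l2 and Bank1. Crebrf, a regulator of CREB3 factors, was nearest to Tcp11l2 (0.469) and to Kdm5b (0.293), followed for both by the histone gene Hist3h2a (0.519 and 0.345). Next came Phf1 (0.526) for Tcp11l2 and Lpin1 (0.360), a phosphatidate phosphatase, for Kdm5b.

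Rnase6 was nearest to Phf1 (0.250), to the cell cycle inhibitor Cdkn1c (0.252) and to the inhibitory receptor Pirb (0.268). Fcrl1 and Gm40841 shared Gm10790 (0.410 and 0.249) and the phosphodiesterase Pde2a (0.433 and 0.260), with Ppm1l next for Fcrl1 (0.442) and Tnfrsf17 next for Gm40841 (0.301). Bank1 was nearest to the galactosyltransferase gene Ggta1 (0.182), Tmem44 (0.198) and the interleukin receptor Il7r (0.205). Hlf was nearest to Tmem204 (0.236), Mtss1 (0.272) and the iron exporter Slc40a1 (0.328). Tcp11l2, whose neighbours were the farthest, also had the largest RMS from its own mean, at 1.29.

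Relatives of Hlf were read in a list of 18 clock and PAR bZIP genes, of which 16 were tested. This list and those below hold no member but were drawn up with earlier results of these data known. Their counts and p-values on the contrasts behind the choice of members are therefore descriptive. With ATV:4D9 in WT mice 11 fell and 1 rose by the edgeR test, in AppSAA mice 8 fell and 0 rose, and by genotype 3 fell and 2 rose, or 5 and 4 with the pool as a replicate block. Over all tested genes 32.5%, 27.1% and 13.7% were called lower and 30.8%, 27.9% and 14.4% higher, and 29.4% lower and 21.5% higher by genotype with the block, so that the genotype counts were near the background in both fits. The median log2 fold change was -0.45, -0.40 and -0.19. Of the genes that fell on the CPM scale, 5, 5 and 3 also had fewer UMIs per cell. Dbp, an output factor of the clock, fell in WT mice with a log2 fold change of -1.91 (from 15.6 to 3.87 CPM, adjusted p = 1.30e-06) and in AppSAA mice with -1.18 (adjusted p = 3.08e-04). Tef fell in WT and AppSAA mice with log2 fold changes of -1.10 and -0.64, and the nuclear receptor gene Rora with -1.15 and -1.04 (adjusted p = 3.85e-07 and 1.68e-06). The log2 ratios in UMIs per cell were smaller, at -1.02 and -0.68 for Dbp, -0.24 and -0.14 for Tef and -0.30 and -0.53 for Rora. By genotype under ATV:ISO Tef fell with -0.50 in the fit (from 40.5 to 25.2 CPM before its scaling, adjusted p = 0.00174), with a log2 ratio of -0.26 in UMIs per cell. The other two that fell by genotype, named after their values were seen, were the clock repressor genes Cry1 (-0.49) and Cry2 (-0.38). Bhlhe40, a repressor of clock genes, rose by genotype under ATV:ISO by 3.69 (from 2.03 to 23.6 CPM, adjusted p = 5.44e-10) and fell with ATV:4D9 in AppSAA mice with -1.41 (from 23.6 to 8.56 CPM, adjusted p = 4.50e-06). Nfil3, which competes for D-boxes, rose by genotype by 0.99 (adjusted p = 2.35e-04) and fell with ATV:4D9 in AppSAA mice with -0.49 in the fit, where its UMIs per cell stood at a log2 ratio of 0.01.

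Around Kdm5b, 15 other histone demethylase genes were tested. All 15 fell with ATV:4D9 in WT mice and 12 in AppSAA mice, and 3 fell by genotype, with 0 rising in each, beside 32.5%, 27.1% and 13.7% of all tested genes called lower. With the pool as a replicate block 11 fell by genotype, beside 29.4% of all genes. Leaving out 1 mouse moved the count without the block from 3 to 6 without WT ATV:ISO replicate 1 and to 1 without WT ATV:ISO replicate 3 or 4 or AppSAA ATV:ISO replicate 1 or 4. The median log2 fold change was -0.69, -0.42 and -0.21. In UMIs per cell, 5 of those 15, 6 of those 12 and 3 of those 3 were lower by any amount. The 3 by genotype were nearly level per cell, at log2 ratios of -0.095 for Kdm1b, -0.054 for Kdm4c and -0.023 for Kdm5c. Those in AppSAA mice included Kdm5a at -0.0056. Kdm7a had the lowest log2 fold change in WT mice, -1.50 (from 99.3 to 32.4 CPM, adjusted p = 3.52e-08), followed by Kdm4b (-1.07) and Kdm6b (-1.05). Kdm7a (-0.79), Kdm6b (-0.71) and Kdm4a (-0.68) led in AppSAA mice. In UMIs per cell the log2 ratios in WT mice were -0.66 for Kdm7a, -0.22 for Kdm4b and -0.20 for Kdm6b. In AppSAA mice they were -0.30 for Kdm7a, -0.20 for Kdm6b and -0.18 for Kdm4a. The paralogs Kdm5a and Kdm5c fell in WT mice with -0.69 and -0.59 in the fit, but had log2 ratios of 0.15 and 0.24 in UMIs per cell, where Kdm5b was at -2.05. By genotype, Kdm1b (-0.33), Kdm4c (-0.28) and Kdm5c (-0.25) fell. Kdm5c was at 29.9 ± 5.48 CPM in WT ATV:ISO and 22.2 ± 1.73 CPM in AppSAA ATV:ISO mice. The only mouse recorded as female was in the WT ATV:ISO group, and the part of sex was not tested.

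Of 17 tested genes of signalling next to immune receptors, where Bank1 acts (kinases, adaptors, phosphatases, a phospholipase, an exchange factor and IP3 receptor channels), 8 fell and 3 rose with ATV:4D9 in WT mice, 6 fell and 5 rose in AppSAA mice, and 8 fell and 2 rose by genotype, with median log2 fold changes of -0.18, 0.11 and -0.23. In WT and AppSAA mice given ATV:4D9 32.5% and 27.1% of all tested genes were called lower and 30.8% and 27.9% higher, and the 6 and 5 of 17 in AppSAA mice were near these shares. By genotype 13.7% of all genes were called lower and 14.4% higher. Of those that fell, 1, 1 and 6 also had fewer UMIs per cell. In WT mice Syk, the kinase of ITAM receptors, fell with a log2 fold change of -0.93 in the fit (adjusted p = 1.87e-08) and stood at -0.09 in UMIs per cell. The adaptor gene Blnk fell with -0.81 in the fit but stood at 0.04 in UMIs per cell, and Lat2 rose by 0.88. In AppSAA mice Pik3ap1 (0.62, adjusted p = 9.98e-08) and Itpr1 (0.62) rose. By genotype Fyn rose by 1.11 (adjusted p = 1.28e-08), Lat2 rose by 0.62 and Syk fell with -0.57.

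Of 21 listed gene family relatives of Tcp11l2, Fcrl1 and Rnase6, 6 were tested, with 3 falling and 1 rising with ATV:4D9 in WT mice, 2 and 1 in AppSAA mice, and 2 and 0 by genotype, or 3 and 1 with the pool as a replicate block. With 6 genes these counts are small, beside all-gene shares of 32.5%, 27.1% and 13.7% lower and 30.8%, 27.9% and 14.4% higher (29.4% and 21.5% by genotype with the block), and 2 of 6 lower in AppSAA mice was near the background. The median log2 fold changes were -0.35, -0.25 and -0.26, and of the genes that fell 2, 2 and 2 had fewer UMIs per cell. The ribonuclease genes Rnase4 and Ang, of the same family as Rnase6, fell with log2 fold changes of -1.26 (from 714.6 to 275.9 CPM, adjusted p = 1.94e-11) and -1.08 in WT mice and -1.09 and -1.02 in AppSAA mice. In UMIs per cell their log2 ratios were smaller, at -0.41 and -0.23 in WT and -0.59 and -0.51 in AppSAA mice. Tcp11l1 rose by 0.66 and 0.86, opposite to Tcp11l2. By genotype Rnase10 (-1.02, from 2.42 to 1.06 CPM) and Rnase12 (-0.55, from 2.91 to 1.74 CPM) fell, both at low levels. Fcrls, the microglial Fc receptor-like gene, did not pass the test, at -0.15 in WT (adjusted p = 0.554) and -0.14 in AppSAA mice (adjusted p = 0.598). With 4D9 against ATV:ISO, 0 genes of any of the 4 lists were called by edgeR, limma-voom or DESeq2, and 0 had an unadjusted edgeR p under 0.05.

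**Figure D5:**
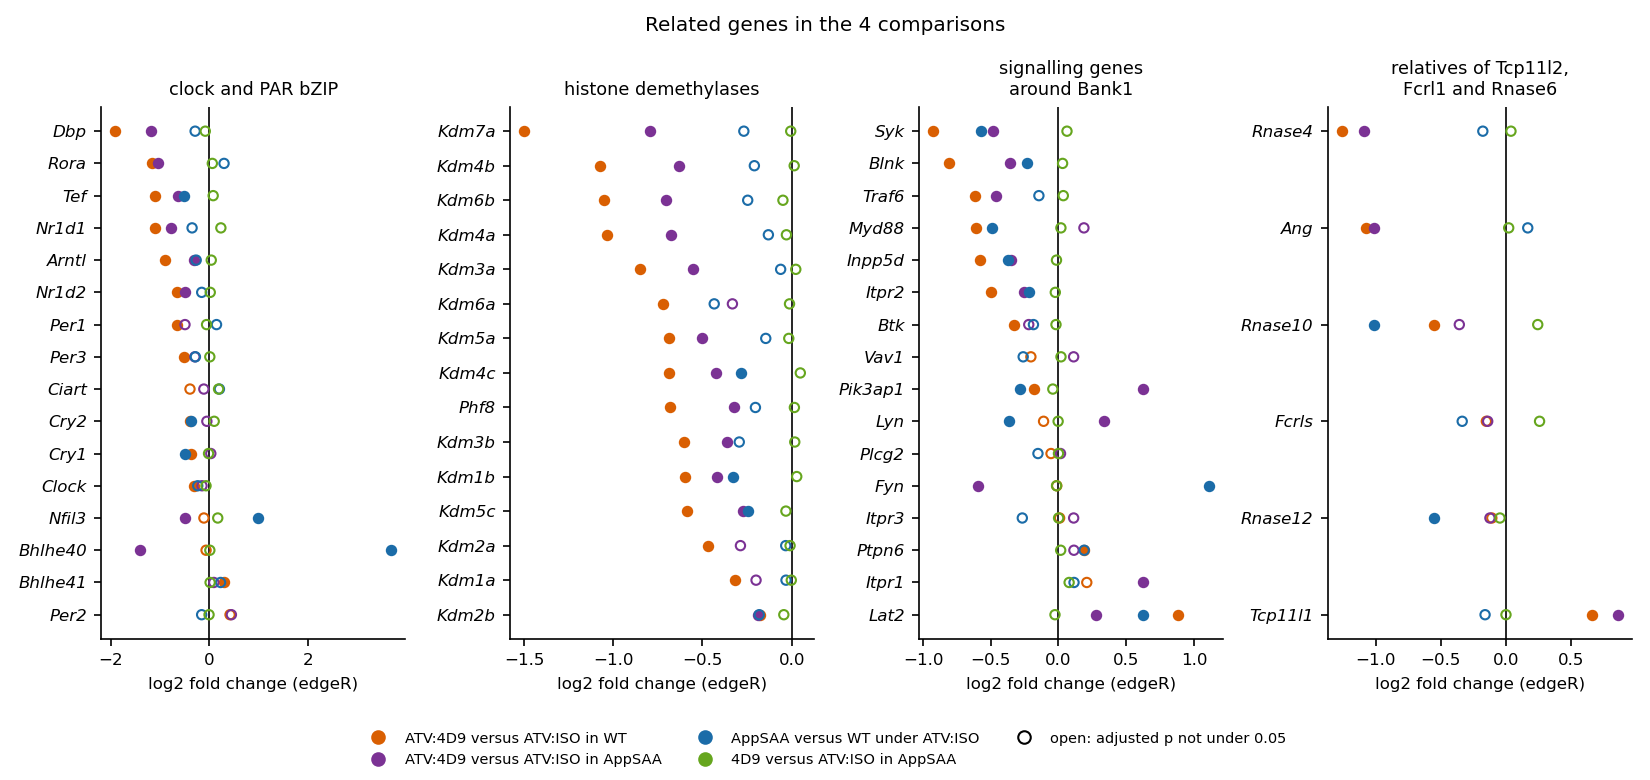
Log2 fold change (edgeR) of tested genes of the 4 lists of related genes in 4 comparisons, marked by colour; filled points have an adjusted p under 0.05. The filled points for ATV:4D9 in WT mice lie below 0 for all 15 histone demethylases, of which 5 were also lower in UMIs per cell, and no point for 4D9 against ATV:ISO is filled.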

How the data were processed

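Single-cell RNA-seq of sorted microglia was analysed from the UMI counts that the authors deposited for 20 mice (5 groups of 4) in 4 pools of tagged cells, with their cell metadata and clusters. Per the labels and methods, reads were aligned and UMIs counted with Cell Ranger (6.1.1 in the submitters' processing notes) on mm10, mice of a pool were told apart by CellPlex oligo tags, and cells were analysed with Seurat, whose integrated clusters are in the metadata. Deposited counts are unnormalized, and the counts of all 74758 cells summed to the deposited totals. How doublets were treated is not given in the sources used here, and no cells were removed. The isotype is spelled otherwise in the metadata (ATV-DNP02) and was read as ATV:ISO. Texts on the series differ on whether hippocampus was included and whether CD45 was used in the sort.

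UMIs were summed per mouse and fitted over all 20 mice with edgeR 4.0.16 (R 4.3.3, TMM scaling, filterByExpr, quasi-likelihood test, Benjamini-Hochberg adjusted p under 0.05). Total UMIs per mouse were 17150296 to 102446549, and the 7 genes had 8989 to 23337 UMIs in all. DESeq2 1.42.0 and limma-voom (limma 3.58.1), other scaling and filters, the 2 groups alone, a replicate block, each mouse left out and clusters 0 and 3 alone were alternatives. The calculation was tested on simulated data. The members and lists were chosen with earlier results of these data known, so contrasts behind the choice carry no test for the members. For the lists, counts called and adjusted p-values on those contrasts are descriptive. Named beside the members were the 3 nearest genes of each, the 3 called genes of each list with the largest fold change in each comparison, and close relatives of the members. Some results for single genes of the lists are not reported here, although the lists' counts include them. Cluster levels used mice with at least 20 cells of the cluster, and log2 CPM used a prior count of 2. Per the labels, the mice are paired by pool, each with 1 mouse from each of the 5 groups. Deviations from group means correlated between mice of the same pool in all 40 pairs (r from 0.143 to 0.607) and over 0.1 in 29 of 120 other pairs of different groups. The main fit had no term for the pool, so its p-values measure the spread between mice of a group with any spread between pools included.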

Additional observations from a re-analysis of the deposited data

Results flagged for a closer look

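In groups of 4 mice, 1 mouse stood far from the other 3 in 5 of 70 groups looked at, where chance alone would give about 3.5. In CPM, Tcp11l2 was at 18.4 in AppSAA ATV:ISO replicate 1 against 14.9 to 15.4 in the other mice of the group, and Bank1 was at 17.4 in AppSAA ATV:ISO replicate 2 against 22.7 to 23.1. In UMIs per cell, Tcp11l2 was at 0.0545 in AppSAA ATV:4D9 replicate 1 against 0.0816 to 0.0851. Kdm5b and Hlf were at 0.259 and 0.169 UMIs per cell in WT ATV:ISO replicate 1, against 0.377 to 0.400 and 0.232 to 0.241 in the other WT ATV:ISO mice.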

How the results depend on the processing

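The number of members lower by more than 2-fold was 7 with ATV:4D9 in WT mice, 6 in AppSAA mice and 3 by genotype. Within clusters 0 and 3 alone it was 2, 1 and 0, and by genotype it was 1 in UMIs per cell, while Rnase6 turned from -0.39 to 0.18 by genotype in clusters 0 and 3. With the pool as a replicate block, the genes called by genotype went from 5 to 9 for the clock list, from 3 to 11 for the demethylases and from 2 to 4 for the family relatives, and over all genes from 13.7% to 29.4% lower and from 14.4% to 21.5% higher, and the block moved no other count of the lists or members by over 1.5 times. The demethylase count by genotype was 1 when every gene with at least 1 UMI was tested, and 1 to 6 when each mouse was left out, with 6 without WT ATV:ISO replicate 1 and 1 without WT ATV:ISO replicate 3 or 4 or AppSAA ATV:ISO replicate 1 or 4. Of 265 gene counts under alternatives 252 stayed within 1.5 times of the reported count. Of 399 member fold changes 7 changed sign, of which 6 were for 4D9 against ATV:ISO with 1 mouse left out. With each mouse left out, that log2 fold change ran from -0.0036 to 0.166 for Tcp11l2, -0.0072 to 0.402 for Fcrl1, -0.117 to 0.0148 for Rnase6 and -0.176 to 0.0224 for Gm40841, with the sign turned without AppSAA 4D9 replicate 1 (Tcp11l2, Gm40841), 3 or 4 (Rnase6) or AppSAA ATV:ISO replicate 1 (Rnase6) or 2 (Fcrl1). In the other comparisons 36 moved by more than the spread between mice (19 in UMIs per cell, 17 in clusters 0 and 3). Leaving out a mouse moved no member's fold by more than 1.16 times. Shares of cells with a UMI moved in 68 of 70 cases with the number of UMIs kept, so they are tied to that depth. In AppSAA mice 4D9 against ATV:ISO gave 0 called members under every alternative run. The causes were not tested.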
